A study of Homo sapiens with 4 samples.

Results

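The peaks described here are distal SMAR1 binding sites that carried a pyrimidine repeat and lay inside protein-coding genes. A peak was included when its centre was more than 1 kb from every transcription start site (TSS) and between the ends of a protein-coding gene, and when its hg19 sequence held an uninterrupted run of alternating T and C, on either strand, of 12 bp or more. Of 13926 peaks in both lists, 2103 met these conditions. They were 629 of 5709 peaks (11.02%) in HCT116 p53+/+ and 1474 of 8217 peaks (17.9%) in HCT116 p53-/-.

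The cells were HCT116, an established line from a human colorectal carcinoma, and its derivative HCT116 p53-/-, which lacks p53. Untreated cells of both lines were immunoprecipitated with an antibody against SMAR1 (BANP), with 1 sequenced library per line and rabbit IgG as mock, and the IgG libraries were not analysed here. With 1 library per cell line no difference between the lines could be tested, and every interval below is a 95% Wilson interval that covers counting error only. The peak lists hold positions and scores but no reads, so the depth behind each peak is unknown from them.

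SMAR1 is a nuclear matrix protein that binds matrix attachment regions, the stretches of DNA that anchor chromatin loops, and that acts in transcriptional repression and together with p53. An alternating T and C run is a simple repeat whose opposite strand reads as alternating A and G, so it has a strand relative to the gene around it. When the pyrimidines are on the coding strand, the pre-mRNA carries a U and C tract. Such tracts precede the 3′ splice sites of introns, where the splicing factors U2AF and PTB bind RNA, and they also occur deep inside introns.

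The sequences below show what these peaks looked like. Each is the whole peak in hg19, written 5′ to 3′ on the coding strand of the named gene (the strand given in its line), with the longest run in capitals. The longest run in either list was in an intron of TRERF1, a transcriptional regulator, and the next longest was in MAP4K4, a kinase of stress signalling. In AFF2 and WDR17 the capitals read A and G, because the pyrimidines were on the strand opposite to the coding strand, and the WDR17 site was called in both lines.
TRERF1, HCT116 p53-/-, chr6:42230128-42230350, minus strand: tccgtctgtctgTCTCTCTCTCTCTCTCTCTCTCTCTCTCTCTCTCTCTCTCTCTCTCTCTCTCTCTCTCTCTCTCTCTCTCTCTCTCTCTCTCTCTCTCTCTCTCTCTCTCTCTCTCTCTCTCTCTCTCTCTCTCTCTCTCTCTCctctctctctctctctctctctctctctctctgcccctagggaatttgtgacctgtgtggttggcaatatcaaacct
MAP4K4, HCT116 p53-/-, chr2:102402135-102402275, plus strand: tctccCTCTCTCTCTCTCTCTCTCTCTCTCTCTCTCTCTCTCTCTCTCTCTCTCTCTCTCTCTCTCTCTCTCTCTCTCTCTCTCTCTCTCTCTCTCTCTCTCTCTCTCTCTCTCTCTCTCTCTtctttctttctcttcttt
AFF2, HCT116 p53+/+, chrX:147879677-147879718, plus strand: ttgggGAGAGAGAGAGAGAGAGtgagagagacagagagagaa
WDR17, HCT116 p53+/+, chr4:177080458-177080499, plus strand: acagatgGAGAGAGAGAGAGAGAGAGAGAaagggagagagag
WDR17, HCT116 p53-/-, chr4:177080418-177080505, plus strand: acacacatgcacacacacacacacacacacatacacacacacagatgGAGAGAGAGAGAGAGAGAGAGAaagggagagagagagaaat

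The next peaks are shown because their runs ended within 50 bp of an annotated 3′ splice site, in EYS (a protein of photoreceptors), TMC3, WDR72 and DMD (dystrophin). The TMC3 peak was called in both lines, and its sequence runs from the pyrimidine tract into the exon.
EYS, HCT116 p53-/-, chr6:65016967-65017011, minus strand: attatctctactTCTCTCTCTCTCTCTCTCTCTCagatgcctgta
TMC3, HCT116 p53+/+, chr15:81637303-81637383, minus strand: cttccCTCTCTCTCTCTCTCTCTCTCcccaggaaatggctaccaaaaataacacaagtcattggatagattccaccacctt
WDR72, HCT116 p53+/+, chr15:53815531-53815562, minus strand: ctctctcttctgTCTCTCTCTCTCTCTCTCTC
DMD, HCT116 p53+/+, chrX:31156736-31156808, minus strand: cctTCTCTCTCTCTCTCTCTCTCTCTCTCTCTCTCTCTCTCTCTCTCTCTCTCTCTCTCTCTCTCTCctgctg

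Other members held short runs inside a longer stretch of interrupted pyrimidines. They are shown because their longest run alone does not describe the peak, as in WNT7A (a secreted Wnt ligand), LILRB3 (an inhibitory receptor of leukocytes) and CACNA1A (a subunit of neuronal calcium channels). In LILRB3 the pyrimidines are also broken by a run of alternating T and G that is longer than the run in capitals.
WNT7A, HCT116 p53+/+, chr3:13910290-13910378, minus strand: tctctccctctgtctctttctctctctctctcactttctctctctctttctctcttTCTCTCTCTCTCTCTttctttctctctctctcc
WNT7A, HCT116 p53-/-, chr3:13910156-13910193, minus strand: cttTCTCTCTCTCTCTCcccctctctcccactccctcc
LILRB3, HCT116 p53-/-, chr19:54729876-54729979, minus strand: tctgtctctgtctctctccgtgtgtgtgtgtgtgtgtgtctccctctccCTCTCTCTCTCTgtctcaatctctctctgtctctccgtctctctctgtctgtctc
CACNA1A, HCT116 p53-/-, chr19:13341279-13341326, minus strand: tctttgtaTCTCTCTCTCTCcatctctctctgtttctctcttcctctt

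The longest run of a member had a median length of 21 bp (quartiles 15 and 29) in HCT116 p53+/+ and 24 bp (quartiles 17 and 34) in HCT116 p53-/-, and the longest was 134 bp in both. Just inside the length threshold, 78 and 136 members had a longest run of 12 or 13 bp, and just outside it 76 and 108 distal peaks in coding genes had one of 10 or 11 bp. Close to the distance threshold, 34 and 72 members were centred within 1500 bp of a TSS, and 29 and 83 peaks with a run in a coding gene were centred 500 to 1000 bp from one. The peaks themselves were short, with medians of 58 and 63 bp, and the run took up a median of 35.7% and 38% of the peak. Its centre was a median of 9 and 8.5 bp from the peak centre, and it covered the peak centre in 56.8% (52.9 to 60.6) and 61.6% (59.1 to 64.1) of members. Outside the run, T and C still made up a median of 85.1% and 82.1% of the peak on the strand of the run. Members with several runs were common, at 209 of 629 (33.2%) and 475 of 1474 (32.2%), but runs on both strands of the same peak were found in only 2 and 1 members. The half-site of the p53 consensus, which reads the same on both strands, was present in 0 and 1 of the member peaks. With 50 bp added on each side it was present in 9 (1.43%, 0.755 to 2.70) and 38 (2.58%, 1.88 to 3.52), and with the same flanks in 1.18% (0.598 to 2.31) and 1.86% (1.01 to 3.38) of distal coding-gene peaks with neither repeat, which differ in length from the members. A match is a description of the sequence and not a binding site.

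The peaks were set beside every such run of the reference. The 22 autosomes and X held 25680 runs of 12 bp or more that were distal and inside coding genes by the same rules, each counted and none sampled. A run was counted as held when 12 bp or more of it lay in a member peak. In HCT116 p53+/+ 1043 runs (4.06%, 3.83 to 4.31) were held, and in HCT116 p53-/- 2275 runs (8.86%, 8.52 to 9.21). Both lines held 422 runs, and 2896 (11.3%) were held in either. Runs of the same peak were counted separately and are not independent, so these intervals are too narrow where a peak holds many runs.

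The share of runs held rose with their length, and it did so far more steeply in HCT116 p53-/-. Of 15522 runs of 12 to 15 bp, 2.84% (2.59 to 3.11) were held in HCT116 p53+/+ and 4.86% (4.54 to 5.21) in HCT116 p53-/-. Of 3470 runs of 20 to 29 bp, 6.66% (5.87 to 7.54) and 15.5% (14.3 to 16.7) were held. Of 586 runs of 40 to 59 bp, the shares were 9.56% (7.43 to 12.2) and 38.2% (34.4 to 42.2). The 52 runs of 60 bp or more were held 7 times in HCT116 p53+/+ (13.5%, 6.68 to 25.3) and 31 times in HCT116 p53-/- (59.6%, 46.1 to 71.8). In none of these classes did the interval of HCT116 p53+/+ reach that of HCT116 p53-/-. These intervals cover counting error within each library and not variation between libraries, which also differed in aligned reads. The gap between the intervals is therefore no test of a difference between the lines. In HCT116 p53+/+ the intervals for 30 to 39 bp and for the longer classes overlapped each other, so no order among them was resolved. For a run of any length 12 bp inside a peak sufficed, and the part of this rule in the rise with length was not tested.

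**Figure D1:**
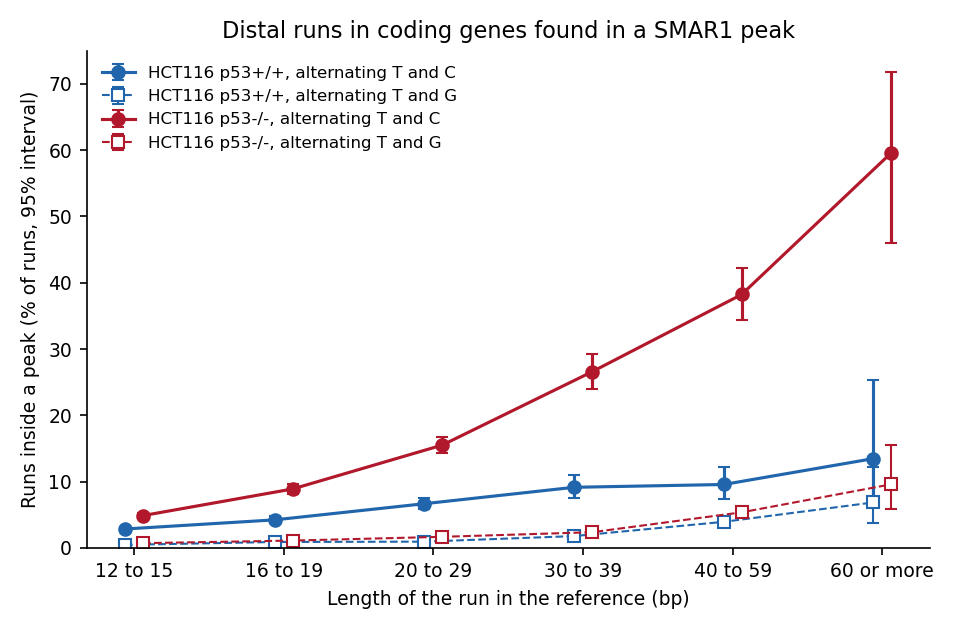
Share of distal runs in coding genes of the reference (vertical axis, % of runs, bars are 95% intervals) that lay in a SMAR1 peak, by run length in bp (horizontal axis), for alternating T and C runs (filled circles) and alternating T and G runs (open squares) in each cell line. T and C runs of HCT116 p53-/- rise from 4.86% to 59.6%, and those of HCT116 p53+/+ from 2.84% to 13.5%.

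Alternating T and G runs, the other simple repeat in SMAR1 peaks, were held less often in the same places. Of 64950 such runs, distal peaks inside coding genes held 1.18% (1.10 to 1.26) in HCT116 p53+/+ and 1.70% (1.60 to 1.80) in HCT116 p53-/-. Their share also rose with length, to 6.85% (3.76 to 12.1) and 9.59% (5.80 to 15.5) of the 146 runs of 60 bp or more. Between the lists, members were 2.34 times as many in HCT116 p53-/- as in HCT116 p53+/+, and pyrimidine-repeat peaks outside coding genes 2.29 times. Distal T and G peaks inside coding genes were 1.27 times as many, and distal coding-gene peaks with neither repeat were fewer, 539 against 679. The peak lists are not scaled for depth, and by the study's own alignment statistics the HCT116 p53-/- library held more aligned reads. The part of depth in these ratios, and in the other differences between the lines, was not tested, and there is no replicate check.

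Long runs are highly repeated in the genome. The 31 bases at the peak centre had further exact copies elsewhere in hg19 in 32.6% and 38.1% of members with runs of 12 to 19 bp, and in 91.7% of those with runs of 40 bp or more in each line. Over all members the shares were 55.3% and 63.6%, and 99 of 629 and 231 of 1474 members held no 31 bases found only once. The part of repeated sequence in the rise with run length was not tested.

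Stretches with several pyrimidine runs close together were held more often than lone runs of the length of their longest run. Runs on the same strand within 50 bp of each other were joined to tracts, which gave 22978 tracts, of which 20886 had 1 run. A tract was counted as held when any of its runs was held. Among tracts whose longest run was 12 to 15 bp, 0.867% (0.721 to 1.04) of lone runs were held in HCT116 p53+/+ and 1.53% (1.33 to 1.75) in HCT116 p53-/-. With 2 runs the shares were 9.09% (6.95 to 11.8) and 10.4% (8.09 to 13.3). With 3 or more they were 14 of 66 (21.2%, 13.1 to 32.5) and 22 of 66 (33.3%, 23.2 to 45.3). The length of the tract was not held fixed in these counts. The parts of tract length and of counting a tract by any of its runs were not tested.

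**Figure D2:**
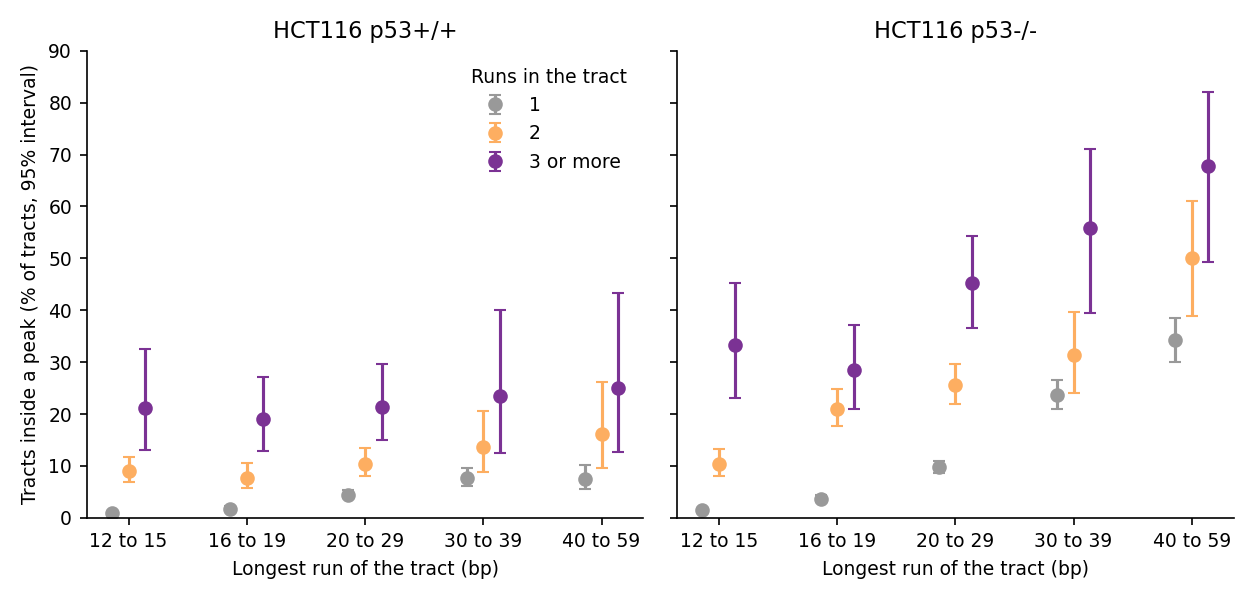
Share of tracts in a SMAR1 peak (vertical axis, % of tracts, bars are 95% intervals) by the longest run of the tract in bp (horizontal axis) and by the number of runs in the tract (grey 1, orange 2, purple 3 or more), with a panel per cell line. In each length class the share is higher with more runs, from 0.867% for lone runs of 12 to 15 bp in HCT116 p53+/+ to 67.9% for tracts of 3 or more runs with a longest run of 40 to 59 bp in HCT116 p53-/-.

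In HCT116 p53+/+ tracts of 3 or more runs were held in 21.2%, 18.97%, 21.4%, 23.5% and 25% of cases from the shortest to the 40 to 59 bp class, and all these intervals overlapped. Over the same classes, the share of lone runs held went from 0.867% (0.721 to 1.04) to 7.55% (5.50 to 10.3) in HCT116 p53+/+ and from 1.53% to 34.2% (30.1 to 38.5) in HCT116 p53-/-. The flanks of lone runs differed as well. Among lone runs of 12 to 19 bp, the 25 bp on each side held a median of 78% T and C when the run was held in either line and 62% when it was held in neither. Among lone runs of 40 bp or more the median was 58% for runs held in HCT116 p53+/+, in HCT116 p53-/- and in neither.

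The pyrimidines were on the coding strand of the gene slightly more often than on the other strand, much as among all runs of the reference. Leaving out peaks with coding genes on both strands, the longest run was on the coding strand in 326 of 620 members (52.6%, 48.6 to 56.5) in HCT116 p53+/+ and in 784 of 1450 (54.1%, 51.5 to 56.6) in HCT116 p53-/-. Runs held in neither line were on it in 52.2% (51.6 to 52.9). Counted by runs, 54.8% (51.8 to 57.9) and 54.4% (52.4 to 56.5) of held runs were on the coding strand.

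By length and counted by runs, held runs of 12 to 15 bp were on the coding strand more often than the others. Runs of 12 to 15 bp were on the coding strand in 57.4% (52.7 to 62.0) of those held in HCT116 p53+/+, 57.2% (53.6 to 60.7) in HCT116 p53-/- and 52.6% (51.8 to 53.5) of those held in neither. The intervals of HCT116 p53-/- and of the runs held in neither did not overlap. Several of these runs share a peak and were not independent. Counted by members, a longest run of 12 to 19 bp was on the coding strand in 144 of 284 (50.7%, 44.9 to 56.5) in HCT116 p53+/+. In HCT116 p53-/- the count was 300 of 516 (58.1%, 53.8 to 62.3), so by members the higher share was seen in HCT116 p53-/- only. From 20 to 39 bp the shares of held runs were 49.3% to 51.3%, with intervals that overlapped those of the other runs. Members with a longest run of 40 bp or more had it on the coding strand in 39 of 59 cases (66.1%, 53.4 to 76.9) in HCT116 p53+/+ and 135 of 237 (57.0%, 50.6 to 63.1) in HCT116 p53-/-. Reference runs of 40 to 59 bp in neither list were also on the coding strand in 58.1% (52.7 to 63.3). The 5 longest runs of HCT116 p53+/+, in TRERF1, PLCL1, DMD, KLHL29 and LRP1B, were all on the coding strand. In HCT116 p53-/- those of TRERF1, MAP4K4 and MEIKIN were on it, and those of NOS1AP and SWAP70 were on the other strand.

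**Figure D3:**
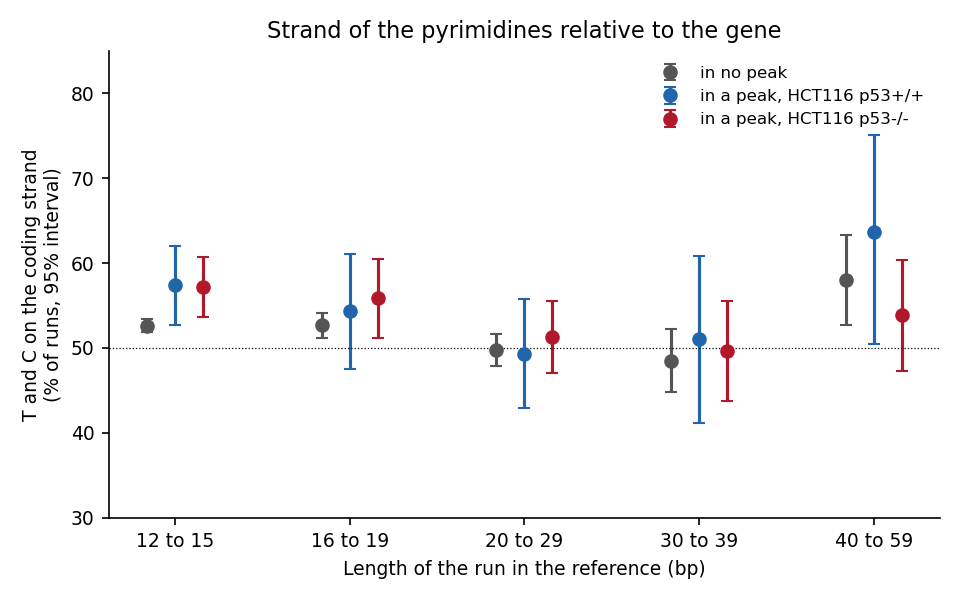
Share of distal runs in coding genes with T and C on the coding strand (vertical axis, %, starting at 30, bars are 95% intervals, dotted line at equal shares) by run length in bp (horizontal axis), for runs in no peak (grey) and in a peak of each cell line. The held runs of 12 to 15 bp lie at 57.4% and 57.2%, above the 52.6% of runs in no peak, and the classes from 16 bp up have overlapping intervals.

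Most members were in introns away from the ends of the transcript. By the canonical transcript, 52.8% (48.9 to 56.7) of HCT116 p53+/+ and 55.8% (53.3 to 58.4) of HCT116 p53-/- members were in an intron that was neither the first nor the last. The first intron held 21.1% and 18.6%, the last 5.09% and 5.50%, and untranslated regions (UTRs) 13 and 33 members. A coding exon held the peak centre in 1 and 2 members. The remaining large group, 18.0% and 16.6%, was inside the gene but outside its canonical transcript. These shares were counted for members only, so they do not set members apart from other distal positions in coding genes. Median distances to the nearest TSS were 14.2 and 13.5 kb.

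The UTR members with the highest scores were those of TCF21, a transcription factor of mesenchymal cells, with 381.54 and a 27 bp run, GDF6, a growth factor of the BMP family, with 135.98, PABPC1L2B with 128.45, SBK1 with 127.69, and BGN, the matrix proteoglycan biglycan, with 119.07, all in HCT116 p53-/-. The run was on the coding strand in each of these 5 genes, and the GDF6 site was also a peak of HCT116 p53+/+ with a score of 118.5. Over all UTR members it was on the coding strand in 8 of 13 and 22 of 31.

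Few runs lay beside a 3′ splice site, whether held or not. Of all 25322 runs with a defined strand, 263 ended within 50 bp upstream of an annotated 3′ splice site, 255 of them on the coding strand. Of the runs held in neither line, 1.11% (0.983 to 1.26) had this position. Of the held runs, 6 of 1025 (0.585%, 0.269 to 1.27) in HCT116 p53+/+ and 9 of 2236 (0.403%, 0.212 to 0.763) in HCT116 p53-/- did, all on the coding strand. The interval of HCT116 p53-/- lay below that of the runs held in neither, and that of HCT116 p53+/+ overlapped it. Run length was not held fixed, with medians of 17 and 19 bp for held runs and 14 bp for runs held in neither. Its part in these shares was not tested. The held run nearest to a splice site was that of EYS, at 2 bp, followed by TMC3 at 5 bp and WDR72 at 8 bp. The 64 bp run of DMD, in intron 76 of the canonical transcript, ended 15 bp before an annotated 3′ splice site. Whether that site belongs to the canonical transcript was not recorded. TSEN15, a subunit of the tRNA splicing endonuclease, was the other gene in which both lines had a peak at such a run, at 21 bp. Away from splice sites, beyond 1000 bp, held runs were on the coding strand in 55.3% (52.1 to 58.4) and 54.3% (52.2 to 56.5), and the others in 51.6% (51.0 to 52.3).

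Most members had no overlapping peak in the other cell line, as was the case for all peaks of each list. In HCT116 p53+/+ 173 of 629 members (27.5%, 24.2 to 31.1) overlapped a peak of the other list by 1 bp or more, above the 20.2% of all its peaks. In HCT116 p53-/- 179 of 1474 (12.1%, 10.6 to 13.9) did, near the 13.5% of all its peaks. Pyrimidine-repeat peaks outside coding genes were shared to the same extent, at 27.5% (24.9 to 30.3) and 12.1% (10.8 to 13.5). Distal T and G peaks inside coding genes were shared less, at 6.75% (4.97 to 9.09) and 5.43% (4.02 to 7.32), and peaks within 1 kb of a TSS more, at 52.6% and 27.9%. Where members of both lines overlapped, 168 of 174 pairs had the same longest run. Seen from the reference, 40.5% of the runs held in HCT116 p53+/+ were also held in HCT116 p53-/-, and 18.5% in reverse.

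**Figure D4:**
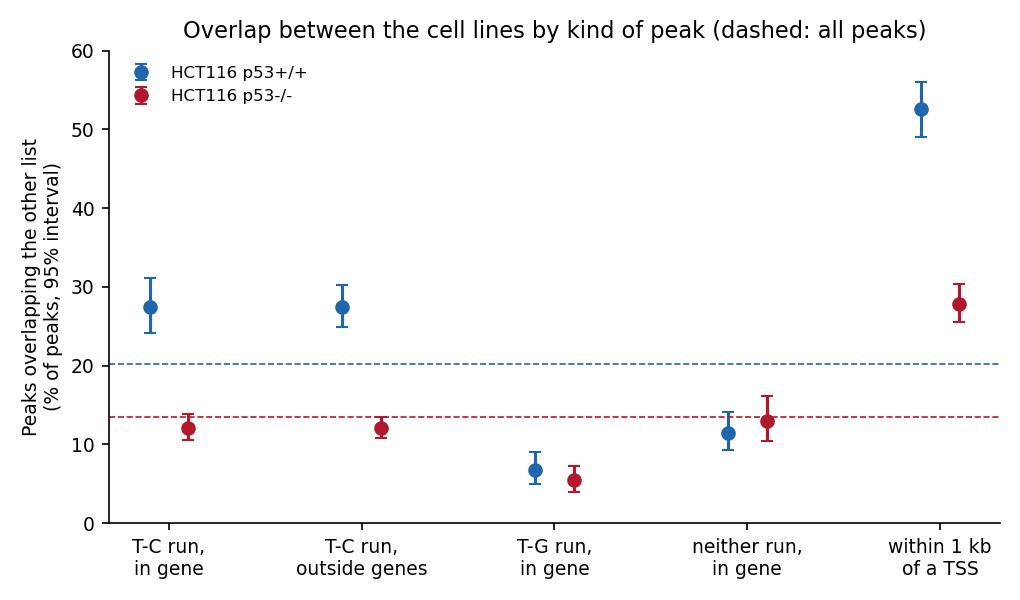
Share of peaks that overlapped a peak of the other cell line (vertical axis, % of peaks, bars are 95% intervals) by kind of peak, with dashed lines for all peaks of each list (20.2% and 13.5%). Peaks with a T and C run in a gene are at 27.5% and 12.1%, those with a T and G run at 6.75% and 5.43%, and those within 1 kb of a TSS are the most often shared.

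The score states how unlikely a peak's reads are under the peak caller's background model (the p-value on a log10 scale, multiplied by −10), and it was compared only within a list. In HCT116 p53-/- the members had a median score of 73.9, with 65.1 for distal T and G peaks in coding genes and 69.5 for those with neither repeat. In HCT116 p53+/+ the order of the repeats was reversed, with 65.8 for members, 73.7 for T and G peaks and 65.7 for neither. Shared members scored higher than the others in HCT116 p53-/- (medians 81.6 and 72.9) and lower in HCT116 p53+/+ (62.1 and 66.9). Across members, the score was nearly unrelated to run length, with Spearman coefficients of −0.08 over 629 and 0.05 over 1474 peaks that share a library.

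Most of the members with the highest scores were long peaks in which the longest run was a small part. ADAMTSL2, which encodes a glycoprotein of the extracellular matrix, held the highest of both lists (441.9 and 640.0), in peaks of 948 and 1005 bp with 27 runs, the longest 25 bp. CTNND2, a catenin of neuronal junctions, scored 242.42 and 485.81, with 40 and 41 runs and a longest run of 51 and 54 bp. SNTG2, a syntrophin, scored 239.46 and 492.38 over peaks of 777 and 766 bp whose longest run was 13 bp. THNSL2 scored 241.49 and 390.28, also with a single run of 13 bp in 503 and 532 bp. All these sites were shared. WDR17 with 171.7 and 190.95 and PCCA, a subunit of the mitochondrial propionyl-CoA carboxylase, with 129.5 and 259.04 were chosen by rank among shared members. The AFF2 peak was of another kind, with a score of 279.16 from 42 bp, a run of 17 bp and no peak at that place in HCT116 p53-/-. So was the TCF21 peak of HCT116 p53-/-, with 381.54 from 43 bp, a run of 27 bp and no peak there in HCT116 p53+/+. The TRERF1 site with 134 bp of run scored 62.82 in HCT116 p53+/+ and 142.7 in HCT116 p53-/-.

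Of 20098 coding genes, 590 had a member in HCT116 p53+/+ and 1211 had a member in HCT116 p53-/-. Several members were in 61 and 234 of these genes, and 3 or more in 9 and 58. Over both lists 1520 genes (7.56%) had a member and 439 had several, or 314 when peaks within 1 kb were merged. Both lines had a member in 281 genes, and in 106 of them at different loci only.

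Genes with several members were long. Their median length was 605 kb in HCT116 p53+/+ and 456 kb in HCT116 p53-/-, that of genes with 1 member 185 and 153 kb, and that of all coding genes 27.3 kb. Of the 71 genes over 1000 kb, 40 (56.3%) and 60 (84.5%) had a member, and of the 13320 genes under 50 kb 82 (0.616%) and 158 (1.19%). Over 5 classes of gene length, the share of runs that was held ranged in HCT116 p53+/+ from 3.71% (3.31 to 4.15) in the middle class, which ends at 500 kb, to 5.13% (4.49 to 5.86) in genes of 500 to 1000 kb. In HCT116 p53-/- it ranged from 7.68% (6.82 to 8.63) in genes under 50 kb to 10.4% (9.50 to 11.4) in genes of 500 to 1000 kb. In both lines these intervals did not overlap, and genes over 1000 kb lay between, at 4.05% and 9.02%. Runs of the same peak were counted separately here too, and the CTNND2 peaks alone held 40 and 41 runs. The intervals are therefore too narrow, and the part of such peaks in these differences was not tested.

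DMD, the dystrophin gene on Xp, had the most members, 4 in HCT116 p53+/+ and 9 in HCT116 p53-/- at 11 loci, and 15 of its 75 reference runs were held. The scores in HCT116 p53+/+ were 77.69, 81.38, 54.89 and 71.74 for runs of 64, 34, 30 and 26 bp. In HCT116 p53-/- the DMD peaks scored between 69.69 and 212.32, with the highest at a 26 bp run that was no peak in HCT116 p53+/+. The sites with the runs of 34 bp and 26 bp at which both lines had a peak are given below beside the one of highest score, since they show the strand of the run changing within 1 gene.
DMD, HCT116 p53+/+, chrX:31739782-31739837, minus strand: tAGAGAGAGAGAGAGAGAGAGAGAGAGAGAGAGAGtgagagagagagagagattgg
DMD, HCT116 p53+/+, chrX:32805330-32805398, minus strand: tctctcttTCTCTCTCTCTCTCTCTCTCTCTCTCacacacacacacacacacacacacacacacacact
DMD, HCT116 p53-/-, chrX:32147818-32147871, minus strand: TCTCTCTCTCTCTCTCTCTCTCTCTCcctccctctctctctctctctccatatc

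In DMD the run was on the coding strand in 7 of 13 members. PTPRD, a receptor tyrosine phosphatase of synapses, had 4 and 6 members, of which 6 were shared, and 9 of 57 runs were held. NTM, the cell adhesion protein neurotrimin, had 1 and 8 members, and 17 of its 36 runs were held, all 17 in HCT116 p53-/- and 5 in HCT116 p53+/+. KCNMA1, a calcium-activated potassium channel, had 6 members in HCT116 p53-/- and none in HCT116 p53+/+, with 9 of 37 runs held. CTNNA3, an alpha-catenin, was the only gene described here with more members in HCT116 p53+/+ among those with the most members, 5 against 3.

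IL1RAPL1, a synaptic receptor, had 3 and 5 members and RBFOX1, a neuronal splicing regulator, 2 and 6, and none of these members was shared. DLG2, a postsynaptic scaffold, had 2 and 5. The run was on the coding strand in 1 of its 7 members, beside 25 of its 64 reference runs. NRXN3, a neurexin, had 2 and 5, PLCL1 3 and 3, and LINGO2 2 and 4. Scores in these genes, from DMD to LINGO2, stayed between 50.63 and 212.32.

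**Figure D5:**
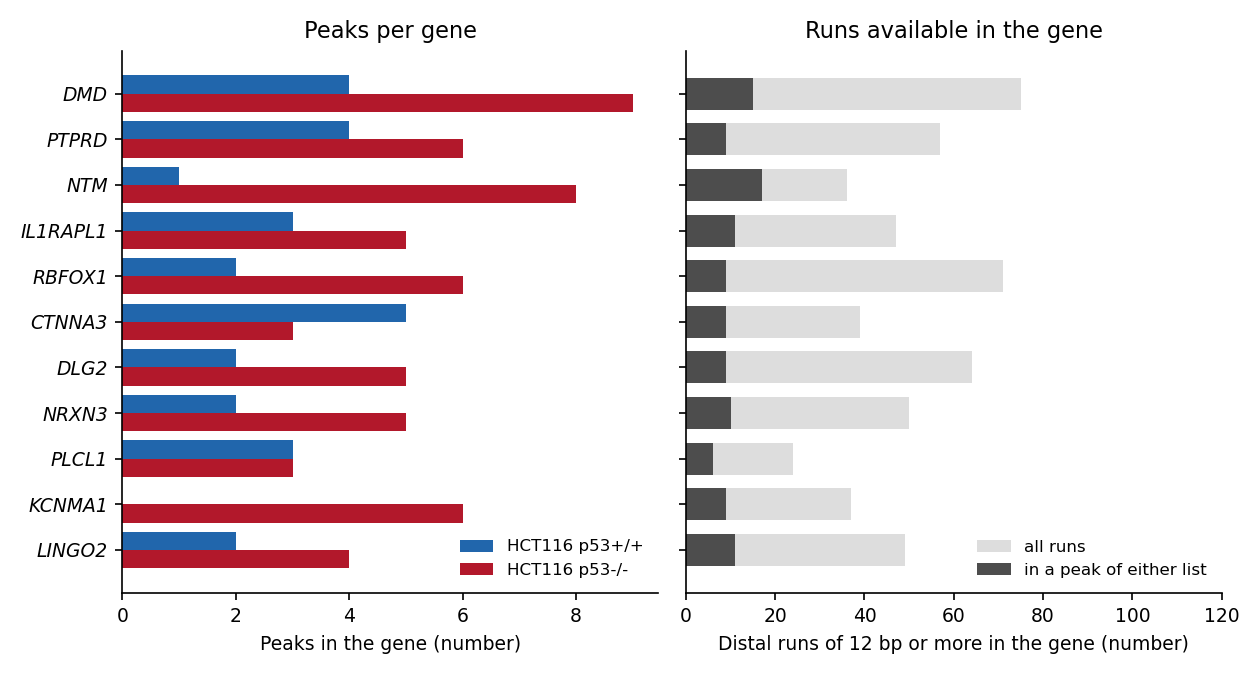
Genes with the most members (11 shown), with the number of peaks in each cell line on the left and, on the right, the number of distal runs of 12 bp or more in the gene (light bars) and of those in a peak of either list (dark bars). DMD has 4 and 9 peaks and 15 of 75 runs in a peak, and NTM has 17 of 36 runs in a peak.

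By members per Mb the leading genes were short. OR10H1, an olfactory receptor gene of 11.1 kb, had 3 members at 1 locus, TMEM243 in 24.4 kb had 3 at 1 locus, and WNT7A in 63.8 kb had 3 at 1 locus. RBM10, an X-linked splicing regulator in 41.6 kb, had 4 members at 3 loci, and all 3 of its distal runs were held in HCT116 p53-/-, as the following peaks show.
RBM10, HCT116 p53-/-, chrX:47020931-47020968, plus strand: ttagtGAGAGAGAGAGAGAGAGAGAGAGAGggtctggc
RBM10, HCT116 p53-/-, chrX:47033277-47033364, plus strand: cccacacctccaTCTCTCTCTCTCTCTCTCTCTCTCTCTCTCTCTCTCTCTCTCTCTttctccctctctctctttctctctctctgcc
RBM10, HCT116 p53-/-, chrX:47036069-47036152, plus strand: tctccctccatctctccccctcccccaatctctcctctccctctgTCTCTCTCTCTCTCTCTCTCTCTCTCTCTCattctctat

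NBPF8 and NBPF20 had 4 and 5 members. These genes belong to a primate family of near-identical copies, so reads could have been placed on either copy and their peaks are uncertain. The NBPF family held 14 members in all, 13 of them with the run on the coding strand, and none was shared. All 28 reference runs of NBPF8 and all 34 of NBPF20 were on the coding strand too, whether held or not. Leaving the NBPF members out changed the coding-strand shares of members to 52.4% and 53.8%.

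Among gene groups, 31 of 56 genes of synaptic adhesion and axon guidance (55.4%) had a member, beside 7.56% of all coding genes, among them NRXN3 with 7 and LRRTM4 and DCC, the netrin receptor, with 4 each. The median length of the group was 360.4 kb, and 2.90% (1.91 to 4.40) and 8.99% (7.12 to 11.3) of its runs were held, beside 4.07% and 8.86% over all coding genes. Of 16 giant genes at common fragile sites, of median length 1505 kb, 12 had a member, with 4.36% (2.97 to 6.36) and 8.38% (6.38 to 10.9) of runs held. DMD and CTNNA3 were among the leading genes.

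The 48 calcium signalling genes had a median length of 203 kb, beside 27.3 kb over all coding genes. Of these 48 genes 9 (18.75%) had a member, led by the calcium channel subunit genes CACNA1A and CACNB2 with 4 each and CACNA2D3 with 3. Of their 297 runs 5 (1.68%, 0.721 to 3.88) were held in HCT116 p53+/+ and 21 (7.07%, 4.67 to 10.6) in HCT116 p53-/-. Of 42 splicing regulators 9 (21.4%) had a member, led by RBFOX1 with 8, RBFOX3 with 5 and KHDRBS2 with 4. The median length of this group was 63.4 kb, and 4.05% (2.15 to 7.52) and 11.7% (8.12 to 16.6) of its runs were held. Of 30 insulin signalling genes, of median length 92.4 kb, only PIK3R3, a regulatory subunit of PI3 kinase, had a member. That peak scored 124.63 in HCT116 p53-/-. None of the 23 canonical p53 targets had a member, and these short genes held 5 distal runs in all. CLINT1 and TRAV21, which the study followed up, had no member. The study also followed up LILRB without giving a family member, and LILRB3, chosen here from that family, had 1 in HCT116 p53-/- with a score of 59.49 and a 12 bp run in an overlap with RPS9 and LILRA6.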

How the data were processed

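Chromatin of untreated HCT116 p53+/+ and HCT116 p53-/- cells was immunoprecipitated with anti-SMAR1 antibody or rabbit IgG and sequenced single end, with 1 library of each kind per line. According to the submitters' processing notes, reads were trimmed (cutadapt 1.2.1), checked (FastQC 0.10.1), aligned to hg19 (Bowtie2 2.2.1), converted (SAMtools 0.1.19) and used for peak calling per library (MACS 1.4.2). The study's methods name another SAMtools version. The deposited lists give each peak's position and a score, which the authors took from MACS as −10 times the log10 of the p-value, and no score was below 50. The score is not scaled for depth. Peaks were filtered by the authors on fold enrichment, a value not used here, and whether IgG served as the MACS control is not given in the sources used here, nor is the treatment of reads with several positions.

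Peaks on the autosomes and X were compared with hg19 sequence and GENCODE release 44 lifted to that build (63827 genes, every transcript start taken as a TSS), with Python 3.11.15, pandas 2.3.3, numpy 2.4.6, scipy 1.17.1, pysam 0.24.0 and matplotlib 3.10.9. Runs were searched on both strands. A member's run is its longest, and strand was counted only where its coding genes share a strand. The run finder, TSS distances and overlaps were tested on simulated data and were correct in 2000 of 2000 cases each. No test across peaks was made, since peaks are not replicates.

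Members and gene lists were chosen with earlier results of these data known. Named genes were the 12 with most members, the 6 densest with 3 or more, the 5 highest scores and 5 longest runs per list, 6 shared members by rank, up to 6 members in exons or UTRs by score, CLINT1, TRAV21 and LILRB3 (for the LILRB family), and up to 3 per gene list. Genes beside splice sites (EYS, TMC3, WDR72, TSEN15), STK32A and the protocadherin alpha cluster were named after their values were seen. Of the genes this rule selects, 1 is not reported here. Alternatives were other run lengths, runs across a break, TSS and gene rules, overlap rules and a score limit.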

Additional observations from a re-analysis of the deposited data

How the results depend on the processing

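Of 106 recomputed values for 13 results, 78 stayed within 1.5 times the reported count or within the interval of the reported share or median, and 28 moved. The coding-strand share stayed within its interval under every alternative run, from 52.0% to 55.1% in HCT116 p53+/+ and from 51.8% to 55.2% in HCT116 p53-/-. No paired analysis was possible because no result comes from a test and each cell line has 1 library.

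With peaks at or above the median score of their list only, members numbered 294 and 733, the shares overlapping the other list were 16.7% and 6.68%, the shares of runs held 1.99% and 4.77%, and genes with several members 23, 83 and 163 (HCT116 p53+/+, HCT116 p53-/-, both lists). With a minimum run of 20 bp these were 338 and 947 members, median runs of 28 and 30 bp, an overlap of 32.5% in HCT116 p53+/+, 7.35% and 20.6% of runs held, and 22, 112 and 242 genes. With a minimum of 10 bp, 2.78% and 5.65% of runs were held. With runs continued across 1 break the medians were 25 and 29 bp and 3.21% and 6.48% of runs were held. With a TSS distance over 5 kb 9.22% were held in HCT116 p53-/-. Joining runs within 50 bp to tracts, an alternative chosen after seeing the data, gave 2.85% and 6.58%. Each of these changes the peaks or runs counted. The lists give no reads per peak, so a run outside the peaks may lie under the limit of detection.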

Other observations

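The peaks that held many runs raised the share of runs held on 2 chromosomes. On chromosome 5, 6.82% (5.62 to 8.26) and 13.01% (11.3 to 14.9) of distal runs in coding genes were held, the highest shares of any chromosome in either cell line, and the CTNND2 tandem repeat alone supplied 40 and 41 of them. On chromosome 9, with 6.03% and 11.2%, the ADAMTSL2 peaks supplied 27. STK32A, a kinase gene also on chromosome 5, had shared peaks with 11 and 12 runs. The lowest shares were 2.36% (1.36 to 4.08) on chromosome 20 in HCT116 p53+/+ and 6.09% (4.02 to 9.13) on chromosome 22 in HCT116 p53-/-.

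A member of HCT116 p53+/+ with a score of 61.31 lay in the protocadherin alpha cluster (PCDHA1 to PCDHA13), where 13 overlapping genes that use alternative first exons share the same sequence, so a single peak counts for all of them.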
